A study of Homo sapiens with 9 samples.

Results

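The type I interferon response genes described here are 35 listed genes that interferon signalling is known to switch on or that carry the signal in the cell. Each gene was taken through every probe set whose annotation gave exactly 1 gene symbol equal to the listed name or its former symbol. In all, 34 of the 35 genes were measured, by 54 probe sets, out of 19775 genes and 54613 probe sets on the array. STAT2 was not analysed here. RNA came from Huh7 cells, an established human hepatoma line, grown as 3 groups of 3 samples. The PBS 48 h group received the solvent PBS for 48 hours. The PGG 6 h and PGG 48 h groups received PGG, the plant polyphenol penta-O-galloyl glucose, at 0.1 mg/mL for 6 and 48 hours. The study used the arrays to find genes that PGG affects, early and late. The samples hold no PBS group at 6 hours, so the effect of 6 hours of PGG and that of a different time in culture cannot be told apart. The PBS samples carry 48 hours in their titles and 0 hour in another label, and the titles were followed.

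Values are log2 signals after RMA normalization, and a difference of 1 on this scale is a doubling. The precision of every value is limited by the 3 arrays per group. A gene is represented by 1 probe set, the one whose mean over the 9 arrays was highest. For members, the other probe sets are described beside it. Because that mean includes the PGG arrays, the choice can favour a probe set that rises. Chosen by the PBS arrays alone, an alternative added after the values were seen, the probe set would differ for 1 member, PARP9, and PARP9 would then count as a fall at both times in place of a rise. A gene was called higher or lower at a Benjamini-Hochberg adjusted p under 0.05 in limma, adjusted over all probe sets. Signals of different probe sets are not compared with each other, since each probe set has its own brightness.

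The labelled cell type was checked against its markers. All 11 measured hepatocyte and hepatoma markers were at or above the median probe set in each group, with means in PBS from 7.06 to 13.54. Of the 6 measured immune and blood cell markers, 4 were at or above it in PBS. These were LYZ at 12.14, CD14 at 6.16, CD3E at 5.68 and the red blood cell gene HBB at 5.77. PTPRC, which encodes the leukocyte surface protein CD45, was at 3.30 and NKG7 at 3.57. CD14 fell at both times, CD3E and HBB fell at 48 hours, and their part in the members' differences was not tested. Array medians lay between 5.16 and 5.20, and the correlation between arrays of a group was at least 0.993. The PGG 48 h arrays stood apart in RNA integrity. The ACTB control signal from the 3′ end exceeded that from the 5′ end by 0.96 to 1.57 in PBS, 1.13 to 1.23 at 6 hours, and 2.14, 4.03 and 2.67 in PGG 48 h replicates 1 to 3. The same measure for GAPDH was 1.83 in PGG 48 h replicate 2 and 0.13 to 0.39 on the other 8 arrays. All 20 members called higher at 48 hours were also called without that array. Replicates 1 and 3 also exceeded every PBS array in the ACTB measure, and the part of RNA integrity in the differences at 48 hours was not tested.

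Type I interferons are secreted proteins that cells release on sensing viral nucleic acid. They bind a receptor built from IFNAR1 and IFNAR2, whose kinases JAK1 and TYK2 pass the signal to a complex with IRF9 that binds interferon-stimulated response elements (ISREs) in the promoters of target genes. Interferon signalling also acts through another element, the gamma-activated site (GAS). The target genes encode sensors of viral RNA, enzymes and binding proteins that block viral replication, and the ubiquitin-like ISG15 system, and in the liver they form a main defence against hepatitis viruses.

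After 48 hours of PGG, 20 of the 34 members rose, 1 fell and 13 did not pass the test. Across all 19775 genes, 22.9% were higher and 23.2% lower at 48 hours, against 58.8% and 2.94% of the members. The median difference of the members was 0.50 on the log2 scale, against -0.02 for all genes. At the threshold that the study's methods name, an adjusted p under 0.005 and a difference beyond 1.5, 9 members were higher and 0 lower at 48 hours, against 3.08% and 2.12% of all genes. At that threshold 0 members were higher or lower at 6 hours, against 0.349% and 0.541%, and 8 were higher and 0 lower at 48 than at 6 hours, against 2.53% and 1.55%. All 3 PGG arrays lay above all 3 PBS arrays in 22 members and below them in 1, against 25.3% and 26.5% of all genes. By highest-mean probe set, the largest rises were in IFIT1 (8.0-fold), ISG15 (5.70-fold), IFIH1 (5.62-fold) and DDX60 (4.07-fold). The other probe sets of IFIT2 and IFIT3 rose 15.9-fold and 5.76-fold. The PBS signals of IFIT1, DDX60 and the other IFIT2 probe set were below the median probe set of 5.19. Detection above background was not shown in that range, so the size of these folds and their rank are uncertain.

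After 6 hours, 4 members rose, 10 fell and 20 did not pass. Of all genes, 15.5% were higher and 15.5% lower at this time, against 11.8% and 29.4% of the members, and the median difference was -0.05, against 0.01 for all genes. With probe sets chosen by the PBS arrays, the counts were 3 rises and 11 falls at 6 hours, against 15.1% and 15.9% of all genes, and 19 rises and 2 falls at 48 hours, against 22.2% and 23.8%. The rises at 6 hours were in IRF1, OAS3, USP18 and PARP9 (by 1 of its 2 probe sets), and the falls in RIGI, IFIH1, DDX60, IFIT5, MX1, MX2, SAMD9, ISG15, HERC6 and DTX3L. All 3 arrays lay above PBS in 6 members and below it in 10, against 23% and 22.1% of all genes. The differences at 6 hours ran from -0.79 to 0.72, a narrower range than the -0.72 to 3.00 at 48 hours. The PBS arrays entered both comparisons, so the 2 sets of differences are not independent.

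**Figure D1:**
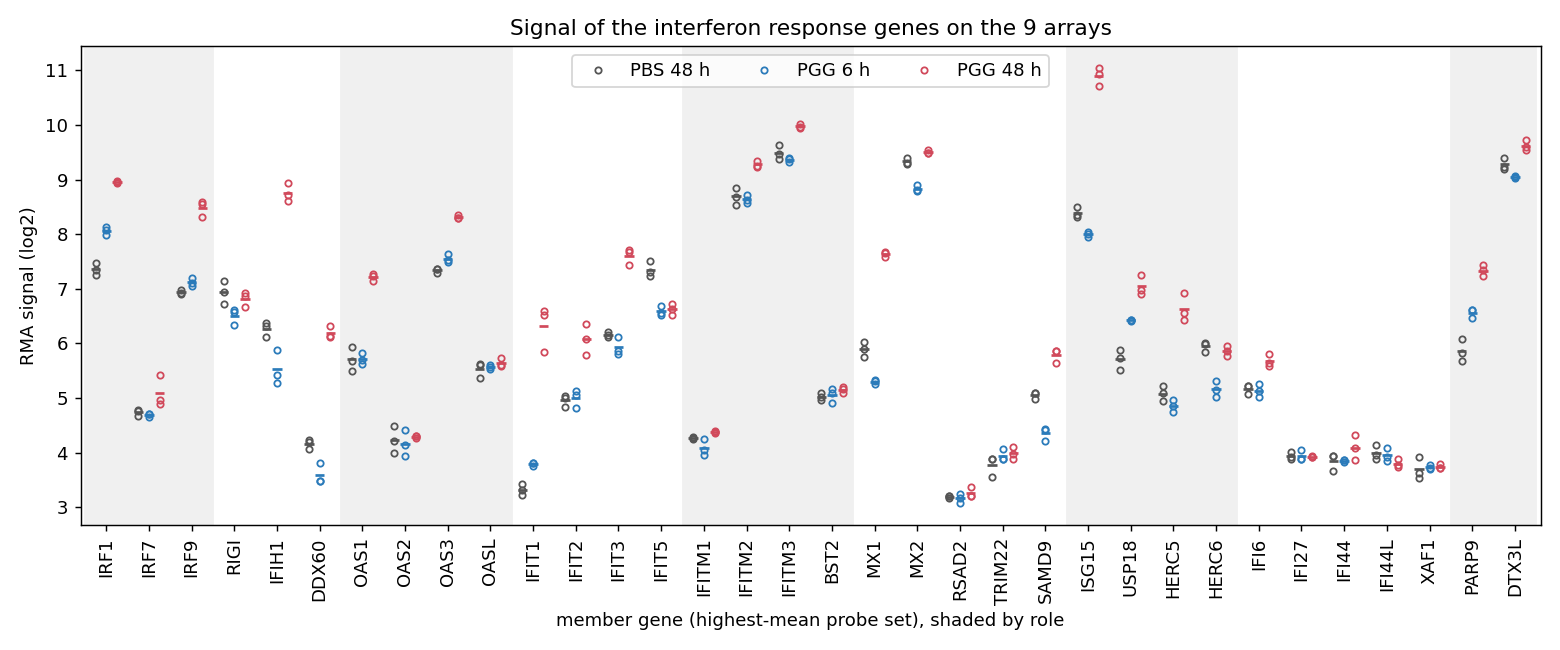
RMA signal (log2, vertical axis) of the 34 measured members on the 9 arrays, by highest-mean probe set and shaded by role. Circles are single arrays (PBS 48 h black, PGG 6 h blue, PGG 48 h red) and bars are group means; the red circles of ISG15, IFIH1, IFIT1 and DDX60 lie 2.02 to 3.00 above PBS on average, while those of IFI27 and XAF1 lie among the PBS circles.

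Promoter sequence was examined for the 2 elements through which this pathway acts. RefSeq windows (GRCh38.p14, 250 bases before to 50 after a start site) were found for 26 of the 34 measured members. The ISRE core, searched as GAAA, any 2 bases and GAAA on either strand, was present in a window of 20 of these 26 genes (76.9%) and of 4.38% of all 27305 genes with a window. The GAS motif, TTCNNNGAA, reads the same on both strands as written and was present in 8 of the 26 (30.8%) and in 9.38% of all genes. Matches of one motif can overlap each other, as in ISG15, and matches of both motifs can overlap, as in IFI27. A match is a description of the letters and not a site shown to be bound. The following stretches, 70 bases on the strand of the gene with the matches in capitals, were chosen after the values were seen.
The first set holds ISRE cores of genes that rose at 48 hours, PARP9 by 1 of its 2 probe sets only.
ISG15 (chr1:1013357-1013426, plus strand): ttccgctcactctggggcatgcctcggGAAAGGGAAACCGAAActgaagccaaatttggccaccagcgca
IFIT1 (chr10:89392483-89392552, plus strand): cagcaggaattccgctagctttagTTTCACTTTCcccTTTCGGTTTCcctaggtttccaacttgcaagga
IFIH1 (chr2:162318804-162318873, minus strand): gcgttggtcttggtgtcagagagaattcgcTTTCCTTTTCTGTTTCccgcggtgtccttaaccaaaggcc
DDX60 (chr4:168318784-168318853, minus strand): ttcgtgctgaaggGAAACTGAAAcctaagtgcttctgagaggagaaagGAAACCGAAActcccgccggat
PARP9 (chr3:122564302-122564371, minus strand): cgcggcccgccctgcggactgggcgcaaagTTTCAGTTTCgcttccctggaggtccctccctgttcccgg
The second set holds the GAS matches of IRF1 and IRF9, transcription factors that rose at 48 hours and had a GAS but no ISRE core in their windows.
IRF1 (chr5:132490859-132490928, minus strand): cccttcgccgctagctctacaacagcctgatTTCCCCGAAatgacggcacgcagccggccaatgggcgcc
IRF9 (chr14:24161171-24161240, plus strand): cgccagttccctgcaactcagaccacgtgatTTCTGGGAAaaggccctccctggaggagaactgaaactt
The third set holds ISRE cores of genes that did not rise. The signals of IFI27 and RSAD2 were below the median probe set of 5.19 in every group, a range where detection above background was not shown.
IFI27 (chr14:94110604-94110673, plus strand): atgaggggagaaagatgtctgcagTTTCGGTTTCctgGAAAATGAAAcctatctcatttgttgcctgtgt
RSAD2 (chr2:6877602-6877671, plus strand): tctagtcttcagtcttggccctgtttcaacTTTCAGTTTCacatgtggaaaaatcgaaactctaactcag
IFIT5 (chr10:89414513-89414582, plus strand): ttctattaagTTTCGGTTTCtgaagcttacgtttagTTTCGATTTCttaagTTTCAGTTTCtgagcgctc

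Members with and without an ISRE core were found among those that rose. Of the 20 members with an ISRE core, 13 rose at 48 hours, 1 fell and 6 did not pass. Of all genes, 22.9% rose and 23.2% fell at that time, and the share among all genes with an ISRE core was not counted. The median difference at 48 hours was 0.625 in the members with a core and 0.78 in those with a window and no core. PARP9 was counted by the rising 1 of its 2 probe sets. By the mean of the 9 arrays, the 6 that did not pass lay below the median probe set of 5.19. Detection above background was not shown in that range. IFIT1, DDX60 and SAMD9, which rose, also lay below that median. Of the 6 with a window and no ISRE core, 3 rose (IRF1, IRF9 and OAS1, each with a GAS match) and 3 did not pass. Of all 8 members with a GAS match, 5 rose at 48 hours and 3 (BST2, IFI27 and IFITM1) did not pass. IFIT5 carried 3 ISRE cores close to its start site and fell at both times. PARP9 and DTX3L lie head to head, and their windows overlap and share the 1 ISRE core printed above for PARP9.

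Among the transcription factors of the response, IRF1 rose at both times and IRF9 and IRF7 at 48 hours. IRF1, a factor that binds ISRE-like elements and is itself induced by interferons, read 7.26, 7.48 and 7.35 in PBS, 7.99, 8.13 and 8.08 at 6 hours, and 8.98, 8.94 and 8.95 at 48 hours. The 3 groups did not overlap, and their order was PBS, 6 hours, 48 hours. The difference from PBS was 0.70 (SE 0.07, limma adjusted p = 3.6e-05) at 6 hours and 1.59 (SE 0.07, adjusted p = 2.2e-08) at 48 hours. Its other probe set gave 0.43 and 1.48, both called.

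IRF9, the DNA-binding part of the interferon-activated complex, read 6.97, 6.92 and 6.91 in PBS, 7.05, 7.11 and 7.19 at 6 hours, and 8.55, 8.32 and 8.59 at 48 hours. All 48 h arrays were far above the other 6. The difference was 0.18 at 6 hours, which did not pass (adjusted p = 0.14), and 1.55 at 48 hours (2.93-fold, adjusted p = 5.5e-08). IRF7, the factor that amplifies interferon production, gave 5.43, 4.89 and 4.96 at 48 hours against 4.67, 4.76 and 4.78 in PBS. PGG 48 h replicate 1 was the highest of these arrays. Its difference was 0.36 (adjusted p = 0.037) with all arrays and 0.19 (adjusted p = 0.061) without replicate 1, and the call was also lost on leaving out any of the PBS or PGG 6 h arrays.

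The RNA sensors fell at 6 hours by limma, and IFIH1 and DDX60 then rose at 48 hours. By the methods' t-test none of the 3 early falls passed (adjusted p = 0.15 for RIGI, 0.083 for IFIH1 and 0.0502 for DDX60). IFIH1 encodes MDA5, the sensor of long double-stranded RNA. Its signal was 6.37, 6.32 and 6.11 in PBS, 5.28, 5.43 and 5.88 at 6 hours, and 8.72, 8.61 and 8.94 at 48 hours. No array of one group reached the range of another. The difference was -0.74 (SE 0.15, adjusted p = 0.0032) at 6 hours and 2.49 (SE 0.15, adjusted p = 1.4e-07) at 48 hours. The other probe sets of IFIH1 did not share the early fall, with 0.23 and 0.41 at 6 hours (neither called), but gave 2.04 and 2.54 at 48 hours, both called. With all probe sets of the gene averaged, the difference at 6 hours was -0.03 (adjusted p = 0.91).

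DDX60, a helicase that promotes signalling by these sensors, read 4.24, 4.19 and 4.07 in PBS, 3.48, 3.48 and 3.82 at 6 hours, and 6.14, 6.11 and 6.32 at 48 hours. The groups were again apart. The difference was -0.57 (adjusted p = 0.0017) and then 2.02 (adjusted p = 4.7e-08). RIGI, the sensor of short RNA with a 5′ triphosphate, read 6.73, 6.95 and 7.15 in PBS, 6.62, 6.58 and 6.33 at 6 hours, and 6.66, 6.92 and 6.87 at 48 hours. The 6 h arrays were just below PBS, and the 48 h arrays overlapped it. The fall at 6 hours was -0.43 (adjusted p = 0.021), and it lost the call without PBS replicate 2 (-0.43, adjusted p = 0.056), PBS replicate 3 (-0.33, adjusted p = 0.085) or PGG 6 h replicate 3 (-0.34, adjusted p = 0.093). The 3 probe sets of RIGI were called lower at 6 hours, with -0.77 and -0.60 in the other ones. At 48 hours they parted, with -0.13 and -0.23 (neither called) in 2 of them and 0.96 (adjusted p = 2.5e-05) in the other.

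The OAS enzymes make an oligoadenylate that activates RNase L, which then degrades RNA. Their genes OAS1, OAS3 and OAS2 lie next to each other on chromosome 12. OAS1 read 5.68, 5.94 and 5.50 in PBS, 5.82, 5.63 and 5.69 at 6 hours, and 7.14, 7.24 and 7.27 at 48 hours. Only the 48 h arrays stood apart, by 1.51 (2.85-fold, adjusted p = 5e-07), and the difference at 6 hours was 0.01. The other OAS1 probe set gave 0.68 at 48 hours (adjusted p = 0.0043) and -0.46 at 6 hours (adjusted p = 0.054).

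OAS3 read 7.29, 7.37 and 7.37 in PBS, 7.49, 7.53 and 7.64 at 6 hours, and 8.30, 8.29 and 8.35 at 48 hours. The groups did not overlap and rose in this order. The difference was 0.21 (adjusted p = 0.036) at 6 hours and 0.97 (adjusted p = 3.6e-07) at 48 hours. The call at 6 hours was lost without any 1 PBS array or without PGG 6 h replicate 2 or 3, with adjusted p from 0.063 to 0.15 and differences from 0.17 to 0.22. The other OAS3 probe set ran the other way in time, with 0.69 (adjusted p = 0.0025) at 6 hours and 0.18 (adjusted p = 0.34) at 48 hours. OAS2 had 3 probe sets with differences from -0.06 to 0.12, none called. OASL, a related protein that lacks the enzyme activity and binds RIG-I, gave 0.03 and 0.11, neither called, and 0.15 and 0.24 by its other probe set, neither called. The mean of both OASL probe sets was called higher at 48 hours (0.17, adjusted p = 0.022).

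IFIT proteins bind viral RNA and block its translation. Their 4 genes lie in a cluster on chromosome 10 in the order IFIT2, IFIT3, IFIT1, IFIT5, with 1 other protein-coding gene between IFIT3 and IFIT1. IFIT1, IFIT2 and IFIT3 rose at 48 hours and IFIT5 fell. IFIT1 read 3.22, 3.42 and 3.32 in PBS, 3.75, 3.82 and 3.82 at 6 hours, and 6.52, 5.85 and 6.59 at 48 hours. PGG 48 h replicate 2 was the lowest of its group but still above every other array by over 2. The difference was 3.00 (8.0-fold, 95% interval 2.65 to 3.35, adjusted p = 6.8e-08) at 48 hours, the largest of the 34 members by highest-mean probe set. At 6 hours it was 0.48 with an adjusted p of 0.053, and without PGG 48 h replicate 2 the adjusted p was 0.00051.

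IFIT2 read 5.03, 5.01 and 4.83 in PBS, 4.81, 5.13 and 5.06 at 6 hours, and 6.36, 5.78 and 6.09 at 48 hours. The other IFIT2 probe set read 3.63, 3.00 and 3.19 in PBS, 3.34, 3.62 and 3.55 at 6 hours, and 7.15, 6.96 and 7.69 at 48 hours. In both, the 48 h arrays stood above the rest and the 6 h arrays overlapped PBS. The rise at 48 hours was 1.12 (adjusted p = 4.8e-05) by the first and 3.99 (adjusted p = 3.3e-08) by the second, so the size of the IFIT2 response depended on the probe set. IFIT3 showed the same kind of gap. Its arrays read 6.21, 6.15 and 6.12 in PBS, 5.81, 6.12 and 5.87 at 6 hours, and 7.67, 7.43 and 7.72 at 48 hours. Its rise was 1.45 (adjusted p = 4.4e-07) by this probe set and 2.53 (adjusted p = 1.6e-08) by the other, and the differences at 6 hours, -0.23 and -0.18, did not pass.

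IFIT5 was the 1 member that fell at 48 hours. It read 7.51, 7.31 and 7.23 in PBS, 6.53, 6.56 and 6.69 at 6 hours, and 6.64, 6.53 and 6.73 at 48 hours. Every PGG array was below every PBS array, and both PGG groups overlapped. The difference was -0.76 (adjusted p = 8.9e-05) at 6 hours and -0.72 (adjusted p = 5.1e-05) at 48 hours. Its other probe set fell by 0.54 (adjusted p = 0.004) at 6 hours and gave -0.13 (adjusted p = 0.42) at 48 hours, so the late fall rested on 1 of the 2 probe sets.

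The membrane proteins that stop virus entry or release showed small changes. IFITM2 and IFITM3, which block fusion of virus in endosomes, rose at 48 hours. IFITM2 read 8.54, 8.85 and 8.69 in PBS, 8.57, 8.72 and 8.62 at 6 hours, and 9.25, 9.24 and 9.35 at 48 hours. IFITM3 read 9.37, 9.63 and 9.47 in PBS, 9.33, 9.39 and 9.37 at 6 hours, and 9.97, 9.95 and 10.01 at 48 hours. The 48 h arrays of both were above all others, by 0.59 (adjusted p = 0.00018) against PBS for IFITM2 and by 0.49 (adjusted p = 0.00025) for IFITM3. These genes are near-identical neighbours on chromosome 11 and were read by probe sets marked as cross-hybridizing, so which of them changed is uncertain. IFITM1 gave -0.18 and 0.11 at 6 and 48 hours, and BST2, the tether of budding virus, gave 0.03 and 0.13, none of them called. The 95% interval of the IFITM1 difference at 6 hours was -0.35 to -0.01.

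MX1 and MX2, neighbouring genes on chromosome 21, encode GTPases that trap viral components. MX1 read 5.75, 6.03 and 5.90 in PBS, 5.31, 5.25 and 5.33 at 6 hours, and 7.58, 7.66 and 7.67 at 48 hours. The 6 h arrays were the lowest and the 48 h arrays the highest, with no overlap. The difference was -0.60 (adjusted p = 0.00019) and then 1.74 (3.35-fold, adjusted p = 1.9e-08). MX2 read 9.29, 9.40 and 9.31 in PBS, 8.80, 8.90 and 8.81 at 6 hours, and 9.48, 9.54 and 9.48 at 48 hours. It fell at 6 hours (-0.50, adjusted p = 0.00016), and its 48 h arrays, though all above PBS, differed by 0.17 (adjusted p = 0.059). This value lay near the threshold, and MX2 was called higher at 48 hours under 8 of the alternatives, with adjusted p from 0.024 to 0.049.

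SAMD9, an inhibitor of poxvirus replication, had the same calls as MX1. It read 5.09, 4.98 and 5.09 in PBS, 4.41, 4.21 and 4.44 at 6 hours, and 5.87, 5.65 and 5.86 at 48 hours. The groups did not overlap, and the difference was -0.70 (adjusted p = 0.00013) and then 0.74 (adjusted p = 3.3e-05). Its other probe set gave -0.32 and 0.35, both called. RSAD2, which encodes viperin, and TRIM22, an antiviral ubiquitin ligase, did not pass at either time, with -0.03 and 0.07 for RSAD2 and 0.17 and 0.21 for TRIM22. The RSAD2 arrays lay between 3.08 and 3.37 in all 3 groups by this probe set and between 2.58 and 2.79 by the other, which was not called (0.01 and -0.10).

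ISG15 is a ubiquitin-like protein that is joined to newly made proteins. ISG15 read 8.32, 8.49 and 8.36 in PBS, 7.95, 8.0 and 8.04 at 6 hours, and 10.93, 10.72 and 11.05 at 48 hours. The 6 h arrays were just below PBS and the 48 h arrays over 2 above it. The difference was -0.39 (SE 0.09, adjusted p = 0.0069) at 6 hours and 2.51 (SE 0.09, adjusted p = 4.1e-09) at 48 hours. HERC5, the ligase that attaches ISG15, read 5.22, 5.09 and 4.94 in PBS, 4.85, 4.96 and 4.74 at 6 hours, and 6.43, 6.93 and 6.56 at 48 hours. It rose by 1.56 at 48 hours (2.94-fold, adjusted p = 1.6e-06), with overlapping groups at 6 hours (-0.23, adjusted p = 0.23).

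USP18, which removes ISG15 and also blocks the interferon receptor, rose at both times. It read 5.88, 5.73 and 5.51 in PBS, 6.41, 6.43 and 6.43 at 6 hours, and 6.90, 6.98 and 7.25 at 48 hours. The groups did not overlap. The difference was 0.72 (adjusted p = 0.00053) at 6 hours, the largest rise of a member at that time, and 1.34 (adjusted p = 1.7e-06) at 48 hours. HERC6, the neighbour of HERC5 on chromosome 4, read 5.99, 6.01 and 5.84 in PBS, 5.31, 5.15 and 5.02 at 6 hours, and 5.77, 5.95 and 5.86 at 48 hours. It fell at 6 hours (-0.79, adjusted p = 6.6e-05), the lowest difference of the 34, and overlapped PBS at 48 hours (-0.09, adjusted p = 0.5). Its other probe set gave 0.08 at 6 hours, not called, and 0.26 (adjusted p = 0.014) at 48 hours.

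PARP9 and DTX3L encode a complex that adds ADP-ribose and ubiquitin and enhances the interferon signal. DTX3L read 9.20, 9.40 and 9.24 in PBS, 9.06, 9.03 and 9.04 at 6 hours, and 9.54, 9.59 and 9.73 at 48 hours. The 6 h arrays were lowest and the 48 h arrays highest, without overlap, and the difference was -0.24 (adjusted p = 0.042) and then 0.34 (adjusted p = 0.0037). The early call was lost without PBS replicate 2 (-0.18, adjusted p = 0.15) or 3 (-0.26, adjusted p = 0.068), or without any 1 PGG 6 h array (adjusted p from 0.090 to 0.11).

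PARP9 gave opposite results by its 2 probe sets. The highest-mean probe set read 5.82, 6.08 and 5.67 in PBS, 6.46, 6.61 and 6.61 at 6 hours, and 7.23, 7.34 and 7.43 at 48 hours. The other probe set read 6.76, 6.94 and 6.84 in PBS, 6.20, 6.34 and 6.32 at 6 hours, and 6.29, 6.50 and 6.21 at 48 hours. In the first every PGG array was above PBS, and in the second every PGG array was below it. The first rose by 0.70 (adjusted p = 0.00044) and 1.48 (adjusted p = 5.4e-07), and the second fell by 0.56 (adjusted p = 0.00066) and 0.51 (adjusted p = 0.00059). PARP9 was the 1 member with opposite calls among its probe sets, at either time.

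Of the 5 other interferon-inducible proteins, IFI6 rose at 48 hours. IFI6, a small mitochondrial and endoplasmic reticulum protein, read 5.22, 5.07 and 5.22 in PBS, 5.02, 5.26 and 5.13 at 6 hours, and 5.80, 5.59 and 5.65 at 48 hours. Its 48 h arrays were above the other 6, by 0.51 (adjusted p = 0.00052) against PBS. IFI27, IFI44, IFI44L and XAF1, which are strongly induced by interferon in many cells, did not pass at either time. The differences at 48 hours were -0.02 (95% interval -0.17 to 0.13) for IFI27, 0.24 (-0.01 to 0.49) for IFI44, -0.20 (-0.39 to 0.00) for IFI44L and 0.05 (-0.15 to 0.26) for XAF1. The other probe sets of IFI44 (-0.03) and XAF1 (0.12 and 0.15) were not called either. By highest-mean probe set, the means of these 4 genes stayed between 3.69 and 4.09 in all groups, below the median probe set of the array at 5.19.

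**Figure D2:**
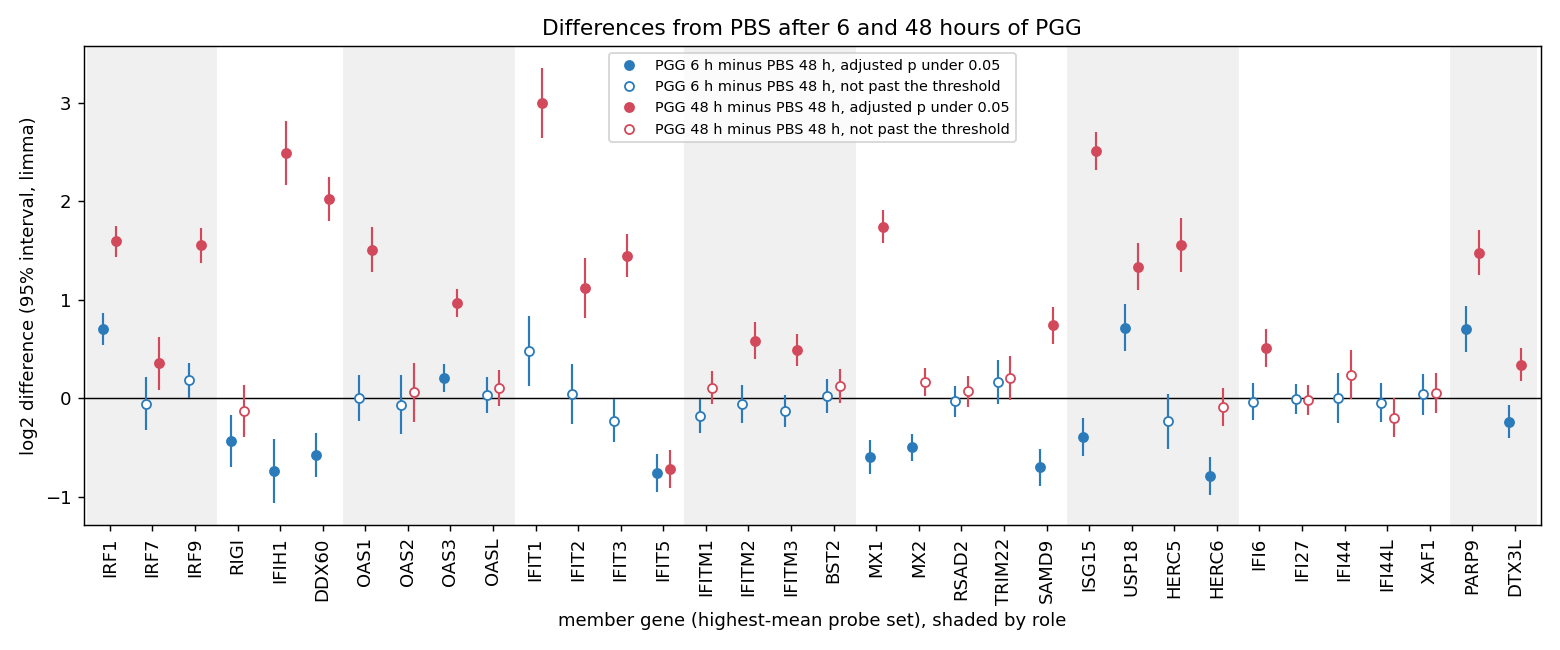
Differences from PBS 48 h (log2, vertical axis) of the 34 members after 6 hours (blue) and 48 hours (red) of PGG, with 95% intervals from limma. Filled points passed an adjusted p under 0.05 and open points did not; red filled points reach 3.00 in IFIT1, while the blue filled points run from -0.79 in HERC6 to 0.72 in USP18.

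The members followed several time courses. The shares of all genes with each combined course were not counted, so these counts have no background to be read against. IFIH1, DDX60, MX1, SAMD9, ISG15 and DTX3L were lower at 6 hours and higher at 48 hours (6 members). IRF1, OAS3, USP18 and PARP9 were higher at both times (4 members), with PARP9 counted by the rising 1 of its 2 probe sets and lower at both times by the falling one. A further 10 were higher at 48 hours with no call at 6 hours, namely IRF7, IRF9, OAS1, IFIT1, IFIT2, IFIT3, IFITM2, IFITM3, HERC5 and IFI6. RIGI, MX2 and HERC6 were lower at 6 hours with no call at 48 hours, IFIT5 was lower at both, and the other 10 were called at neither. These courses follow the highest-mean probe sets. Other probe sets of IFIH1, RIGI, OAS3, IFIT5 and HERC6 had a different call at 6 or 48 hours. By the mean of the 9 arrays, 21 members were at or above the median probe set and 13 below it. IFIT2, HERC5 and IFI6 passed only with the PGG arrays, and 18 members were at or above it by their PBS arrays.

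The direct comparison of both PGG groups gave 23 members higher at 48 hours than at 6 hours, 0 lower and 11 not called, against 22.4% of all genes higher and 22% lower. The median difference of the members was 0.63, against -0.01 for all genes. By these probe sets, no member was lower at an unadjusted p under 0.05 either, nor by the t-test that the methods name. The largest gaps were in IFIH1 (3.23, adjusted p = 3e-08), ISG15 (2.90, adjusted p = 2.8e-09), DDX60 (2.60, adjusted p = 1.2e-08), IFIT1 (2.52, adjusted p = 3.2e-07) and MX1 (2.34, adjusted p = 4.6e-09). MX2 (0.66, adjusted p = 7.1e-06) and HERC6 (0.70, adjusted p = 6.7e-05) rose between the times from their early low, whereas IFIT5 did not pass (0.04, adjusted p = 0.79). The other IFIT5 probe set was higher at 48 than at 6 hours (0.41, adjusted p = 0.013), as was the mean of both (0.23, adjusted p = 0.044). RIGI gave 0.31 (adjusted p = 0.069), and its other probe sets gave 0.54 and 1.57, both called.

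Counted by single probe sets, 29 of the 54 rose and 2 fell at 48 hours, against 18.8% and 20.2% of all probe sets, and 6 rose and 15 fell at 6 hours, against 12.2% and 12.5%. Between the PGG groups 33 were higher and 1 lower at 48 hours, against 18% and 18.4%, and the 1 lower was the other OAS3 probe set (-0.51, adjusted p = 0.0094). Of the 16 members with several probe sets, the probe sets had the same call in 13 at 6 hours and in 11 at 48 hours. The members that differed at 6 hours were IFIH1, HERC6 and PARP9. At 48 hours they were RIGI, OAS3, IFIT5, HERC6 and PARP9.

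The other genes of the pathway were described from 5 lists, by highest-mean probe set alone, without their other probe sets. Their counts are to be read against 15.5% of all genes higher and 15.5% lower at 6 hours, and 22.9% higher and 23.2% lower at 48 hours. Of 18 interferon genes listed, 16 were measured, all below the median probe set, and 0 were called at either time by limma or by the t-test. At an unadjusted p under 0.05 in limma, 1 was lower at 6 hours and 0 differed at 48 hours, and the median difference was 0.04 and -0.02. At signals this low, changes of the ligand RNAs may not have been detectable.

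Of 10 measured receptor and JAK-STAT genes, 4 rose and 1 fell at 6 hours (40% and 10%), and 6 rose and 1 fell at 48 hours (60% and 10%), with medians of 0.23 and 0.56. The 1 that fell was IFNAR1, a chain of the type I interferon receptor itself. It read 7.97, 7.65 and 7.80 in PBS, 6.61, 6.54 and 6.44 at 6 hours, and 5.78, 5.80 and 5.79 at 48 hours. The 3 groups were apart and descending, with a difference of -1.28 (adjusted p = 1.7e-06) and then -2.02 (adjusted p = 1.3e-08). The other type I chain, IFNAR2, was higher at 6 hours (0.38) and not called at 48 hours (-0.03). JAK1 rose by 0.40 and 0.65. TYK2 gave -0.05 at 6 hours, not called, and rose by 0.46 at 48 hours. Both chains of the interferon-gamma receptor rose at both times, by 0.80 and 0.70 for IFNGR1 and by 0.29 and 1.25 for IFNGR2. STAT3, a transcription factor best known from interleukin-6 signalling, gave 0.27 at 6 hours (adjusted p = 0.061) and rose by 0.99 at 48 hours.

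Of 10 inhibitors of the signal, 3 rose and 2 fell at 6 hours (30% and 20%), and 5 rose and 2 fell at 48 hours (50% and 20%). PIAS1 and PIAS3, which block STAT proteins from DNA, rose by 0.31 and 0.42 at 6 hours and by 1.09 and 0.87 at 48 hours. CISH, an inhibitor of cytokine receptors, rose by 0.48 and 0.72, and PTPN11, a phosphatase, fell by 0.26 and 0.73. Of 16 genes of nucleic acid sensing and its relay, 3 rose at 6 hours (18.8%), and 6 rose and 4 fell at 48 hours (37.5% and 25%). TLR3, the endosomal sensor of double-stranded RNA, read 4.08 ± 0.07 in PBS, 4.29 ± 0.07 at 6 hours and 7.72 ± 0.11 at 48 hours. Its difference from PBS at 48 hours was 3.63 (12.4-fold, limma adjusted p = 3.7e-10). The TLR3 signals in PBS and at 6 hours were below the median probe set of 5.19, so the size of this fold is uncertain. TRIM25, the ubiquitin ligase that activates RIG-I, rose by 0.99 and TRAF3, an adaptor of the relay, fell by 1.06 at 48 hours. IKBKE, a kinase that activates interferon regulatory factors, rose by 0.97 at 6 hours and 0.43 at 48 hours.

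Of 36 measured further interferon-stimulated genes that are not among the members, 6 rose and 7 fell at 6 hours (16.7% and 19.4%, near the shares of all genes), and 20 rose and 3 fell at 48 hours (55.6% and 8.33%), with medians of 0.02 and 0.35. TMEM140, a membrane protein, gave -0.57 at 6 hours and 3.22 at 48 hours, both called. SP100, a nuclear body protein, rose by 2.22 and APOL1, an apolipoprotein, by 1.94 at 48 hours, with -0.16 and 0.05 at 6 hours, neither called. TRIM14, an adaptor of antiviral signalling, fell by 1.71 at 48 hours.

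**Figure D3:**
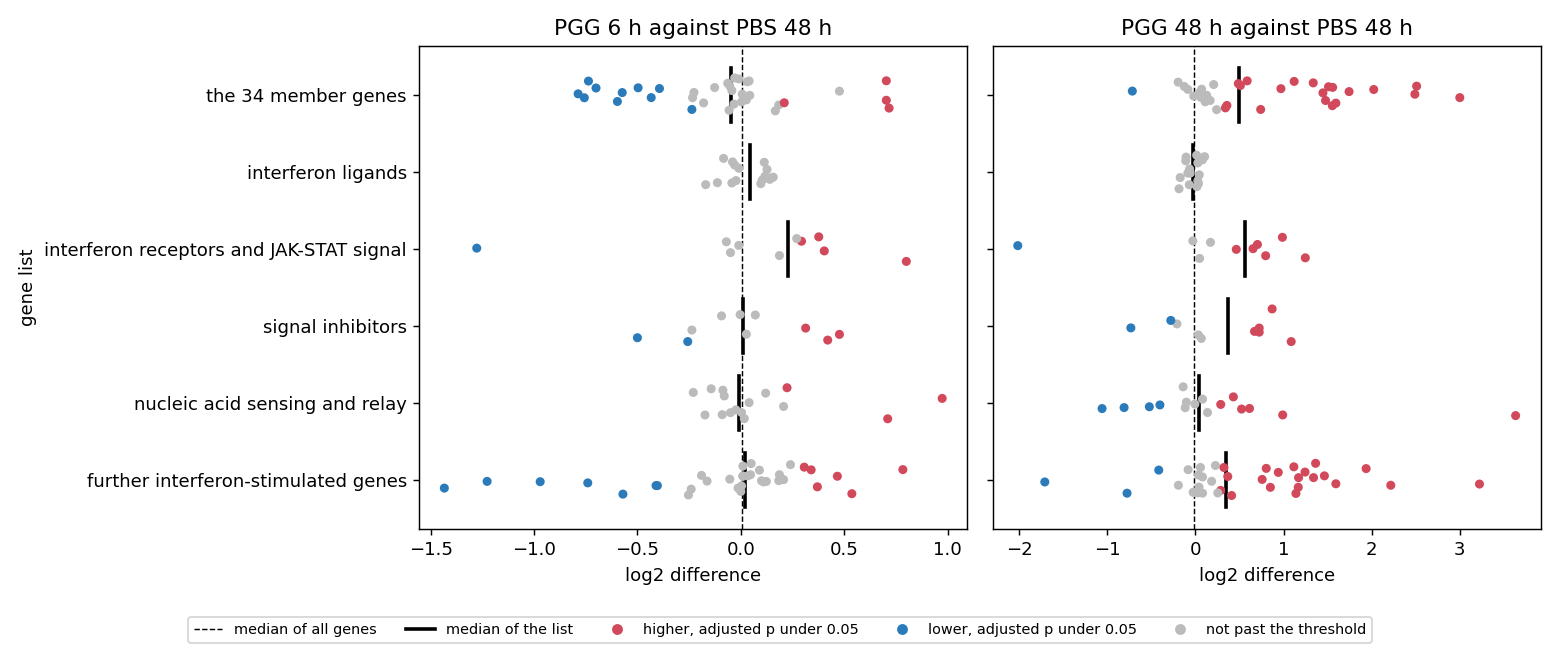
Differences from PBS 48 h (log2, horizontal axis) of the members and of 5 lists of pathway genes, at 6 hours (left) and 48 hours (right). Each point is a gene, red where higher, blue where lower and grey where not called, the solid bar is the median of the list and the dashed line that of all genes; the 16 interferon genes lie between -0.19 and 0.16, and IFNAR1 is the blue point of the receptor list.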

How the data were processed

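RNA of 9 Huh7 samples was hybridised to Affymetrix arrays. The values deposited by the authors are log2 signals per probe set, made with RMA in Expression Console (Affymetrix) according to the submitters' processing notes. The version was not given in the sources used here. The members and gene lists were chosen with earlier results of these data known. Samples were grouped by their titles. Of 54675 probe sets, 62 controls were left out, 41091 had 1 gene symbol in the platform annotation, 1801 several and 11721 none. Entrez identifiers of 41037 matched RefSeq, and 0 symbols changed. From the deposited log2 values, differences were fitted with limma 3.58.1 in R 4.3.3 (lmFit with 1 mean per group, eBayes) over the 9 arrays, with Benjamini-Hochberg adjustment over 54613 probe sets. The fit was also run on simulated data with independent noise and few changed probe sets, unlike these arrays. That run cannot show how well the fit suits these data. The labels number the samples of a group as biological replicates, and p-values measure the spread between them, which 3 arrays per group estimate loosely. Every member was named, with each array given for members called with a difference of at least 0.5. In each pathway list, up to 4 called genes with the largest difference were named, and IFNAR2, JAK1 and TYK2 besides. Alternatives covered normalization, the filter on dim probe sets, the summary of probe sets, the study's threshold (adjusted p under 0.005 and a difference beyond 1.5), the methods' t-test, the variance model, array weights, the choice of probe sets and the filter by PBS arrays alone (both added after seeing the data), pairing by number and leaving out arrays.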

Additional observations from a re-analysis of the deposited data

Results flagged for a closer look

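For 23 members the PGG 48 h and PGG 6 h groups differed by a direct limma comparison. With no PBS group at 6 hours, a change in the effect of PGG and a change with time in culture cannot be told apart. The change from 6 to 48 hours, on the log2 scale, was 3.23 for IFIH1, 2.90 for ISG15, 2.60 for DDX60, 2.52 for IFIT1 and 2.34 for MX1. It was between 1 and 2 for HERC5 (1.79), IFIT3 (1.67), OAS1 (1.503), SAMD9 (1.44), IRF9 (1.37) and IFIT2 (1.08). It was below 1 for IRF1 (0.89), PARP9 (0.77), OAS3 (0.76), HERC6 (0.70), MX2 (0.66), IFITM2 (0.64), USP18 (0.62), IFITM3 (0.61), DTX3L (0.58), IFI6 (0.54), IRF7 (0.41) and IFITM1 (0.29). By highest-mean probe set the 23 differences were positive, and of all genes 22.4% were called higher in this comparison. The other probe set was called lower for OAS3 (-0.51) and was not called for PARP9 (0.05) and HERC6 (0.18). In the rest of the 23 with several probe sets, the other ones were called higher too. The PGG 48 h arrays also had the larger ACTB 3′ to 5′ differences, and their part in these changes was not tested. With 3 arrays per group, single arrays were not tested for lying apart.

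A probe set that the annotation gives to both IFITM2 and IFITM1, and that was not used for any member, was also higher at 48 hours than in PBS, by 0.39 (limma adjusted p = 0.0027). The other such probe set, given to both RNF31 and IRF9, did not pass at 48 hours (0.06, adjusted p = 0.73).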

How the results depend on the processing

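Under the alternatives, a called difference changed sign in PARP9 and in no other member. None of them took the other OAS3 probe set alone, which was lower at 48 than at 6 hours (-0.51, limma adjusted p = 0.0094). Choosing probe sets by the PBS arrays alone, an alternative added after seeing the data, gave -0.56 at 6 hours and -0.51 at 48 hours for PARP9 and 2 members lower at 48 hours. At the study's threshold, the members called at 6 hours were 0 in all (0 higher, 0 lower), those at 48 hours 9 (9 higher, 0 lower), and those between the PGG groups 8 (8 higher), since few differences exceed 1.5. The methods' t-test called 6 members lower at 6 hours in place of 10, losing RIGI, IFIH1, DDX60 and DTX3L, and among the rises lost OAS3 (adjusted p = 0.070) and gained IFIT1 (adjusted p = 0.014). Leaving out 1 array gave 11 to 15 members called at 6 hours (3 to 5 higher, 8 to 11 lower), 20 to 21 at 48 hours (19 to 20 higher, 1 lower) and 21 to 25 higher between the PGG groups (0 lower). In these fits 8 of the 10 falls at 6 hours (not DTX3L and RIGI), 3 of the 4 rises (not OAS3), 19 of the 20 rises at 48 hours (not IRF7) and 21 of the 23 rises between the PGG groups (not IFITM1 and IRF7) kept their call each time. Leaving out dim probe sets kept 21 members, of which 17 rose at 48 hours, but IFIT2, HERC5 and IFI6 passed that filter through their PGG arrays. Filtering on the PBS arrays alone, also added later, kept 18, of which 14 rose. The shares of all genes that rose after these filters were not counted, so the filtered counts have no background to be read against. Averaging the probe sets of a gene removed the calls of IFIH1 (-0.03) and PARP9 (0.07) at 6 hours and of OAS3 (0.12) between the PGG groups. Deviations of arrays with the same replicate number were at most weakly correlated (from -0.09 to 0.16, with 3 of 9 pairs over 0.1). These correlations were positive for replicates 1 and 2 and negative for replicate 3. The fit with the replicate number as a block called 9 lower at 6 hours, without DTX3L (adjusted p = 0.062), and 2 lower at 48 hours, with IFI44L added (-0.20, adjusted p = 0.044); it changed no other call. The 3 arrays per group and the low signal of 13 members limit the smallest change that could be called.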
